A study of Mus musculus with 3 samples.

Results

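The genes of intermediate filaments and of their linker plectin were followed in mouse embryonic fibroblasts (MEFs) of the KO-actin line, in which the β-actin knockout background expresses β-actin tagged with a nuclear localization signal (NLS). The members were taken by gene symbol from the 46603 genes in the count tables, and 10 of 10 were found. Every member had more than 3 counts in each library, beside 32.6% of all genes in the tables and 58.9% of the protein-coding genes. They are Vim, Des and Gfap (type III filaments), Nes and Synm (type IV), Krt18 and Krt19 (type I keratins), Krt7 and Krt8 (type II keratins) and Plec, which encodes the linker plectin. RNA-Seq of polyadenylated RNA was available for 3 libraries, numbered as replicates 1 to 3, with 44383636 to 49932446 counts each. All 3 carry the same label (Beta-actin KO-NLS genotype, fibroblast), so every value describes this cell line alone and no condition was compared with another. The labels do not say whether the libraries came from separate cultures, so the spread between them may be technical. No source used here says whether the line is a clone or how the NLS-tagged β-actin is driven, and no cell age is given.

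Intermediate filaments are the rope-like, non-polar component of the cytoskeleton, and the protein that builds them differs by cell type. Vimentin is the filament of mesenchymal cells such as fibroblasts, desmin of muscle, GFAP of astrocytes, and keratins of epithelia. Nestin and synemin do not form filaments well alone and are built into those of vimentin or desmin, while keratins assemble only as pairs of a type I and a type II chain, such as keratin 18 with keratin 8. Plectin, a giant protein of the plakin family, ties these filaments to actin, microtubules and adhesion sites.

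The filament members share a rod domain, but not long stretches of identical bases. The longest exact run shared by the coding parts of any 2 members was 30 bases, between Krt7 and Krt8 (GENCODE M21 transcripts on GRCm38), and 0 of 45 pairs shared a run of at least 50 bases. The 30-base run is printed because bases that 2 genes share cannot assign a read to either of them.
Krt7 and Krt8: cagcagaacaagatgctggagaccaagtgg

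Vim dominated the filament genes. Its levels in replicates 1 to 3 were 4630, 4760 and 4298 CPM (counts scaled to the TMM library size), averaging 4563 ± 238 CPM (SD, n = 3). On GRCm38 the gene spans 13573927 to 13582826 of chromosome 2, plus strand. All 3 libraries were high and close to each other. Divided by the 4.743 kb covered by its annotated exons, its mean level was 962 ± 50.2 CPM per kilobase (SD, n = 3), which ranked 14 among 21624 protein-coding genes. The nearest coding genes in this ranking were mt-Atp8 and Rpl41 above Vim, at 1089 and 1030 CPM per kilobase, and S100a11 and S100a6 below it, at 943 and 930 CPM per kilobase. Col1a1, the main fibroblast collagen chain, was lower than Vim in 3 of 3 libraries, with Vim at 1.56 ± 0.0519 times its level per kilobase (SD, n = 3), or 3.04 ± 0.101 times with the longest coding transcript of each gene as the length. In bulk RNA, a low level in every cell and a high level in few cells cannot be told apart for any gene given here.

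Per kilobase, the members ran in the order Vim, Nes, Plec, Krt18, Krt19, Des, Synm, Krt8, Krt7 and Gfap, from 962 down to 0.0838 CPM per kilobase. Of the 9 pairs of neighbours in this order, 8 did not overlap in any library, the exception being Krt18 and Krt19. The higher member was above the lower in 3 of 3 libraries for all 9 pairs, and an exact two-sided sign-flip permutation test gave p = 0.25 for each, the smallest that 3 libraries allow. Vim exceeded Nes, the next member, 10.95 ± 0.603-fold (SD, n = 3). The length used changes Vim most, because its exons cover 4743 bases in all and its longest coding transcript 2193: with the longest coding transcript of each gene as the length, Vim had 2081 CPM per kilobase and exceeded Nes 22.6 ± 1.25-fold (SD, n = 3).

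**Figure D1:**
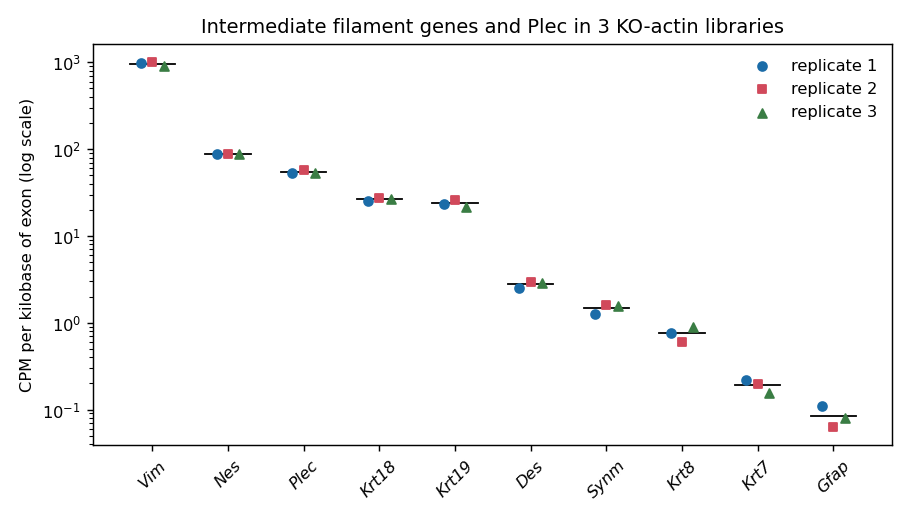
Level of each member in CPM per kilobase of exon on a log axis, with a point per replicate and a bar at the mean of the 3 libraries. Vim stands at 962, Nes, Plec, Krt18 and Krt19 lie between 87.8 and 23.8, and Des, Synm, Krt8, Krt7 and Gfap run from 2.76 down to 0.0838.

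Grouped by the cell type each filament is known for, Vim held 87.0% ± 0.506 (SD, n = 3) of the summed CPM per kilobase of the 9 filament genes. The glial and progenitor genes Gfap and Nes held 7.97% ± 0.406 (SD, n = 3), nearly all of it Nes. The simple-epithelial keratins held 4.62% ± 0.135 (SD, n = 3) and the muscle genes Des and Synm 0.383% ± 0.0427 (SD, n = 3). The order of these classes was the same in each library: Vim held 87.4%, 87.3% and 86.5% in replicates 1 to 3, and the keratins 4.47%, 4.69% and 4.71%. With coding transcript lengths the share of Vim was 93.2%, of Gfap and Nes 4.13%, of the keratins 2.48% and of Des and Synm 0.2205%.

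Nes came next to Vim per kilobase, though Plec had more CPM, and it varied little between the libraries. Nestin is a type IV filament protein of neural and muscle progenitors that co-assembles with vimentin. Its gene, on chromosome 3 from 87971078 to 87980451 on the plus strand, had 559, 565 and 566 CPM in replicates 1 to 3, a mean of 564 ± 3.66 CPM (SD, n = 3). The highest library exceeded the lowest by a factor of 1.01, and its SD of log2 CPM, 0.0094, was about the 0.0088 that counting error alone would give. This closeness was lost when libraries were centred within bins of GC content, where Nes stood 0.01, -0.04 and 0.03 log2 units from the mean in replicates 1 to 3. Other genes of neural progenitors were low. Of Sox1, Sox2, Pax6 and Fabp7, only Fabp7, a fatty-acid binding protein, was above 3 counts in every library, beside 58.9% of all protein-coding genes. Fabp7 had 1.25 ± 0.0439 CPM per kilobase (SD, n = 3). The summed level of these 4 genes lay between 1.23 and 1.30 CPM per kilobase in the 3 libraries, beside 87.8 for Nes.

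Synm, the other type IV member, lies on chromosome 7 from 67730160 to 67759742 on the minus strand. Synemin links desmin and vimentin filaments to other structures of muscle and glial cells. Its 3 libraries, in replicate order, had 10.02, 12.7 and 12.3 CPM, averaging 11.7 ± 1.43 (SD, n = 3), so that replicate 1 was the lowest. Per kilobase, Nes was 60.4 ± 7.55 times as high as Synm (SD, n = 3). Of the exonic length of Synm, 6.43% is overlapped on the opposite strand by Ttc23 and Gm45102, the latter not analysed here. Most of the shared sequence was with Gm45102. Of the 50-base windows of the Synm mRNA, 4.7% also occur in transcripts of other genes, and 4.22% occur in Gm45102. Ttc23 had 9.44, 12.3 and 12.9 CPM, also lowest in replicate 1. Whether the counting used the strand is not given in the sources used here, so reads from the overlapped part of these genes cannot be told apart.

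Des, the muscle member of type III, stood at 9.36, 11.04 and 10.7 CPM in the 3 libraries, averaging 10.4 ± 0.889 (SD, n = 3), and was lowest in replicate 1. The gene lies on chromosome 1 from 75360329 to 75368579 on the plus strand. Vim was 350 ± 37.6 times as high per kilobase (SD, n = 3), or 611 ± 65.7 times with coding transcript lengths. Per kilobase, Des was 1.89 ± 0.0765 times as high as Synm (SD, n = 3), though the mean CPM of Des was the lower. The antisense gene Gm15179, which overlaps 5.86% of the exonic length of Des, had 0 counts in each library.

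Muscle genes split into 2 patterns beside Des. Of 5 smooth muscle genes, 4 exceeded 3 counts in each library, beside 58.9% of all protein-coding genes. The list summed to 529 to 534 CPM per kilobase. Tagln, an actin-binding protein of smooth muscle, had 390 ± 3.59 CPM per kilobase (SD, n = 3) and the calponin Cnn1 95.7 ± 4.01 (SD, n = 3). Myh11, the smooth muscle myosin heavy chain, had 3, 7 and 6 counts. In the striated muscle list 2 of 7 genes were above 3 counts in every library, Tnnt2 at 1.51 ± 0.0373 CPM per kilobase (SD, n = 3) and Ttn with 6, 5 and 4 counts. Myod1, Myog, Ckm and Myh3 had 0 counts in each library. A count of 0 allows up to 3 counts, or 0.0671 CPM in the smallest library, a limit that covers counting error only. Sync, which encodes syncoilin, an intermediate filament protein of muscle, had 4.01 ± 0.697 CPM per kilobase (SD, n = 3), 1.45 ± 0.156 times the level of Des (SD, n = 3).

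Gfap was the lowest member. Its locus, chromosome 11 from 102887336 to 102900912 (minus strand), had 23, 13 and 15 counts in replicates 1 to 3. These are 0.461 CPM (95% exact Poisson interval 0.292 to 0.692), 0.264 CPM (0.141 to 0.451) and 0.336 CPM (0.188 to 0.554). The 3 intervals overlap, and the chi-square test between libraries described below gave an adjusted p of 0.349. No difference between libraries was thus detected at this depth, while each count is above the limit of 3. The mean was 0.353 ± 0.0997 CPM (SD, n = 3). In the glial list 4 of 8 genes were above 3 counts in every library, beside 58.9% of all protein-coding genes. The summed level of the list was 4.67 to 4.89 CPM per kilobase. Slc1a3, a glutamate transporter of astrocytes, had 2.83 ± 0.208 CPM per kilobase (SD, n = 3) and Mbp, a myelin protein, 1.42 ± 0.0171 (SD, n = 3). Aqp4, the astrocyte water channel, had 3, 2 and 4 counts and Sox10, a factor of oligodendrocytes and Schwann cells, 0, 2 and 4. The part of glial cells in the Gfap count was not tested.

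The simple-epithelial keratin genes were unbalanced in RNA, with the type I genes high and the type II genes low. Protein was not measured. Krt18, at chromosome 15, 102028180 to 102032027 (plus strand), had 36.7, 38.9 and 38.1 CPM in replicates 1 to 3, averaging 37.9 ± 1.08 (SD, n = 3). Krt19, at chromosome 11, 100140810 to 100148665 (minus strand), had 43.3, 48.5 and 40.3 CPM, averaging 44.1 ± 4.14 (SD, n = 3). Both type I genes were expressed at a similar level. Per kilobase Krt19 was at 0.900 ± 0.0747 times Krt18 (SD, n = 3), and with coding transcript lengths at 1.06 ± 0.0880 times (SD, n = 3), so their order depends on the length and they are not separated.

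Krt8, the usual partner of keratin 18, occupies 101996698 to 102004482 of the same chromosome, minus strand. Its libraries held 74, 58 and 79 counts, which are 1.48 CPM (95% exact Poisson interval 1.16 to 1.86), 1.18 CPM (0.894 to 1.52) and 1.77 CPM (1.40 to 2.20), with a mean of 1.48 ± 0.296 CPM (SD, n = 3). Krt7, another type II chain of simple epithelia, lies on chromosome 15 from 101411043 to 101430313 on the plus strand. It had 77, 68 and 49 counts, or 1.54 CPM (1.22 to 1.93), 1.38 CPM (1.07 to 1.75) and 1.10 CPM (0.811 to 1.45). The mean of Krt7 was 1.34 ± 0.226 CPM (SD, n = 3). Both type II genes were thus low in every library, though far above 3 counts, and neither overlapped the type I genes.

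Per kilobase, Krt18 was 33.8 times as high as Krt8 in replicate 1 (95% exact Clopper-Pearson interval 26.8 to 43.2), 44.99 times in replicate 2 (34.7 to 59.5) and 29.4 times in replicate 3 (23.4 to 37.3). The mean was 36.0 ± 8.06-fold (SD, n = 3). Krt19 exceeded Krt7 127 ± 17.6-fold (SD, n = 3), or 86.6-fold with coding transcript lengths. For the sum of Krt18 and Krt19 over the sum of Krt7 and Krt8 the ratio was 50.1, 66.8 and 45.6 in replicates 1 to 3, a mean of 54.2 ± 11.2 (SD, n = 3). It was above 1 in 3 of 3 libraries, and the exact two-sided sign-flip permutation test gave p = 0.25, the smallest possible. The excess of type I over type II keratin RNA among the members was many times the spread between libraries.

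**Figure D2:**
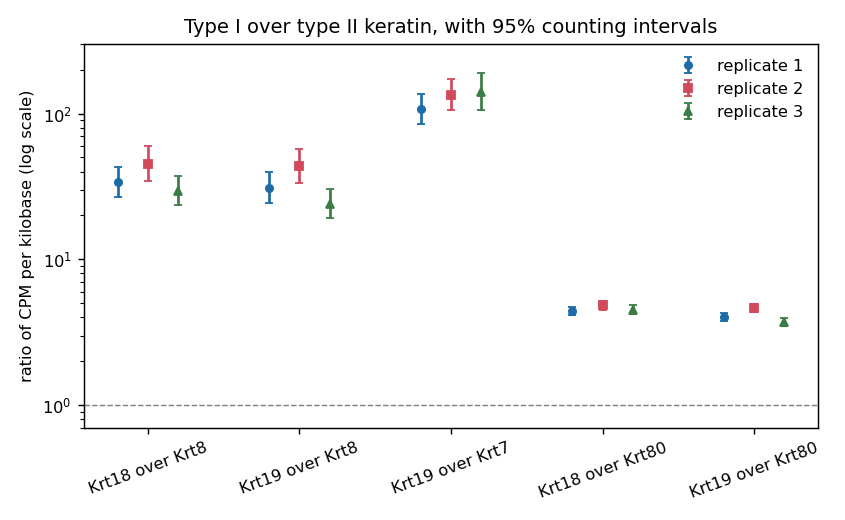
Ratio of a type I to a type II keratin gene in CPM per kilobase on a log axis, with a point per replicate and bars for the 95% exact Clopper-Pearson interval of the counts. The dashed line marks a ratio of 1. Krt18 over Krt8 lies between 29.4 and 44.99, whereas Krt18 over Krt80 lies between 4.42 and 4.82.

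The count of Krt8 is uncertain beyond counting error, because a processed pseudogene carries part of its sequence. Of the 50-base windows of the Krt8 mRNA, 29.7% also occur in transcripts of other genes, and 26.9% occur in Krt8-ps. Of the 100-base windows, 17.1% were shared. The longest exact run shared with Krt8-ps spans 299 bases, from coding base 385 to coding base 683 of Krt8, counted from the A of the start codon. Its first 100 bases are printed, since no read inside them could be placed on Krt8 alone.
Krt8 and Krt8-ps: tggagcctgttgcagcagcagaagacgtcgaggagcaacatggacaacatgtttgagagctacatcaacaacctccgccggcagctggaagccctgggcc

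The 30-base run shared with Krt7, printed above, spans coding bases 358 to 387 of Krt8. How reads matching several places were counted is not given in the sources used here, and Krt8-ps was not analysed here. If every read in the shared 50-base windows had gone uncounted, Krt8 would rise to 2.10 CPM, and Krt18 would still exceed it 25.3 ± 5.66-fold per kilobase (SD, n = 3). For Vim, Nes, Gfap and Krt19, 0% of the 50-base windows were shared with another gene, for Krt18 0.72%, and for Krt7 0.222%. Few or none of the windows of these genes were thus shared exactly. Only exact matches in annotated transcripts were searched, so an effect of near-identical copies on the counts was not tested.

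Krt8 and Krt18 lie next to each other, head to head, with 23.7 kb between their starts and no other gene of the count tables between them. The noncoding Gm36026, which is annotated there and overlaps 5.16% of the exonic length of Krt8 on the opposite strand, was not analysed here. The neighbour beyond Krt18, the translation initiation factor Eif4b, was at 231 CPM per kilobase, and those beyond Krt8, Krt78 and Krt79, had at most 1 count in any library. Sequence upstream of this unequal pair is printed with that of Des and Gfap, and 2 stretches of 30 bases show where the letters TATAAA lie in Krt8, across the RefSeq start, and in Vim, the highest member, before it. Sequences are from RefSeq on GRCm38.p6, 5′ to 3′ on the strand of the gene, and hold no annotated exon of the gene except for the pair of 30-base stretches. Capitals mark GGGCGG (the GC box) on either strand, and TATAAA as read on the printed strand. In Krt8 the capitals are overlapped by TTTATA, the match on the opposite strand, which is not marked.
Krt18, chr15:102028030-102028179, plus strand: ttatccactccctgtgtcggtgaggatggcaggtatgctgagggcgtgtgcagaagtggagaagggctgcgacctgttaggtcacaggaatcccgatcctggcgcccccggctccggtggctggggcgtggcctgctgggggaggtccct
Krt8, chr15:102004483-102004592, minus strand: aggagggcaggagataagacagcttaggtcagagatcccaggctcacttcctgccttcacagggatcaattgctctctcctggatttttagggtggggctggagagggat
Krt8, chr15:102004326-102004355, minus strand: ggcctcttctttTATAAAgggccttcgctg
Vim, chr2:13574267-13574296, plus strand: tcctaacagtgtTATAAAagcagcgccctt
Des, chr1:75360142-75360291, plus strand: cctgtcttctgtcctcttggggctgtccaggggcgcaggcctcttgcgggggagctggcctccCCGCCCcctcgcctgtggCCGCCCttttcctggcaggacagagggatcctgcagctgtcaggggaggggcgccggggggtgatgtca
Gfap, chr11:102897201-102897350, minus strand: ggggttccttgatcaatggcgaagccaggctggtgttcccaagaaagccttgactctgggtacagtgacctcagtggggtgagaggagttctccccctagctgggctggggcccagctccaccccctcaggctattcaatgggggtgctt

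RefSeq start windows of 300 bases (250 before and 50 after the start) matched 8 of the 10 members. TATAAA, searched on both strands, occurred in the windows of Vim and Krt8 and in 13.6% of all 32851 windows. GGGCGG occurred in those of Des, Nes and Krt7 and in 35.7% of all windows, and CCAAT in those of Vim and Synm and in 37.4%. TGANTCA occurred in 0 of the 8 member windows and in 7.81% of all, and CACGTG in that of Synm and in 7.15% of all. In Vim the letters TATAAA began 32 bases before the RefSeq start, whereas in Krt8 they began 1 base before the start and so crossed it. The overlapping match on the opposite strand of Krt8 began 3 bases before the start.

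Across the keratin family, few genes were detected. Of 53 protein-coding keratin genes, 10 were above 3 counts in every library and 24 had 0 counts in all 3, beside 58.9% of all protein-coding genes above this limit. On chromosome 15 the detected type II genes stood at the 2 ends of the cluster, with Krt80, Krt7, Krt87 and Krt88 in places 1 to 4 and Krt8 in place 25 of 26, followed by Krt18. Between them no gene was above 3 counts in every library. On chromosome 11 the detected type I genes were Krt10, Krt13, Krt19 and Krt14.

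**Figure D3:**
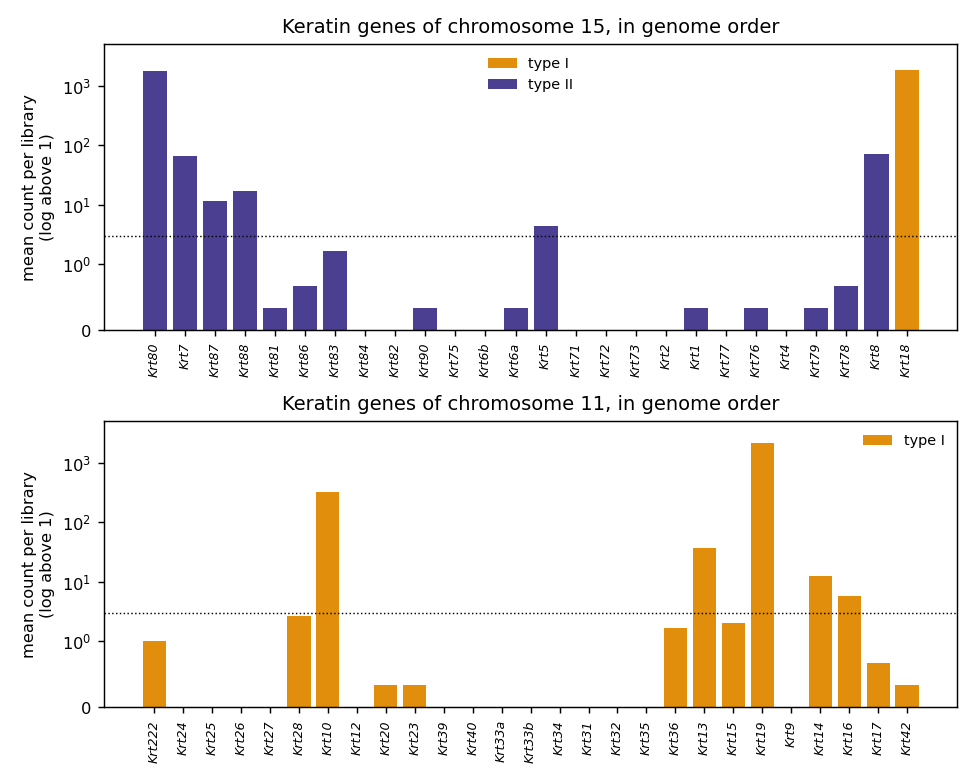
Mean count per library of each protein-coding keratin gene in genome order on chromosomes 15 and 11, on an axis that is linear below 1 and logarithmic above, coloured by keratin type. The dotted line marks 3 counts. On chromosome 15 the bars above the line are at the ends of the cluster, apart from Krt5 with 7, 0 and 6 counts.

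Krt80 was the highest type II keratin, a chain of a wide range of epithelia. It had 37.01, 35.9 and 37.6 CPM, with a mean of 5.76 ± 0.136 CPM per kilobase (SD, n = 3), which was 7.83 ± 1.42 times the level of Krt8 (SD, n = 3), or 12.8 ± 2.32 times with coding transcript lengths. Krt18 exceeded Krt80 4.58 ± 0.212-fold (SD, n = 3), or 2.81 ± 0.130-fold with those lengths. Krt10, a type I keratin of the upper epidermis, had 3.13 ± 0.189 CPM per kilobase (SD, n = 3). The levels of Krt13, Krt88, Krt14 and Krt87 were from 0.427 down to 0.103 CPM per kilobase. Summed over the family, type I keratins had 54.0 ± 2.83 and type II keratins 7.27 ± 0.319 CPM per kilobase (SD, n = 3), a ratio of 7.45 ± 0.702 (SD, n = 3). This ratio was lower than that of the 4 members alone because Krt80 enters the type II sum. It was 5.29 with coding transcript lengths and 2.23 for CPM not divided by length, since Krt80 has 6.393 kb of annotated exons and Krt18 has 1.437 kb.

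Markers of epithelia were nearly absent beside these keratins. In the epithelial list 1 of 7 genes was above 3 counts in every library, beside 58.9% of all protein-coding genes. This was Grhl2, with 6, 4 and 7 counts. Epcam had 0, 1 and 0 counts, Cdh1, which encodes E-cadherin, 4, 12 and 1, and Esrp1, an epithelial splicing factor, 0 in each library. The summed level of this list was 0.0332 to 0.179 CPM per kilobase, beside 26.4 for Krt18 and 23.8 for Krt19. Mesothelium, which lines body cavities, also expresses simple keratins, and its list gave a mixed picture. Msln, which encodes the surface protein mesothelin, had 27.7 ± 0.802 CPM per kilobase (SD, n = 3), close to Krt18. The other genes of that list were far lower, with 6, 18 and 9 counts for Wt1, 1, 3 and 0 for Upk3b and 1, 5 and 1 for Lrrn4. The part of mesothelial cells in the keratin counts was not tested.

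The fibroblast label was checked against 10 genes, of which 9 were above 3 counts in every library, beside 58.9% of all protein-coding genes. Col1a1, at 618 ± 39.9 CPM per kilobase (SD, n = 3), and the matrix protein gene Fn1, at 306 ± 1.51 (SD, n = 3), were high. S100a4, Col3a1 and Pdgfrb came next, at 53.45 ± 1.73, 27.3 ± 0.673 and 22.7 ± 0.902 CPM per kilobase (SD, n = 3). The median over coding genes above 3 counts in every library was 6.43 CPM per kilobase. The rest of the list was low: Col1a2, the partner chain of Col1a1, had 1.69 ± 0.128 CPM per kilobase (SD, n = 3). The receptor gene Pdgfra had 0.496 ± 0.0285 and the surface marker Thy1 0.279 ± 0.0849 CPM per kilobase (SD, n = 3). Lum had 0 counts in each library and Dcn, the other proteoglycan of the list, 8, 8 and 6. Pecam1, Cdh5 and Kdr, the endothelial markers, had a summed level of 0.223 to 0.270 CPM per kilobase.

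**Figure D4:**
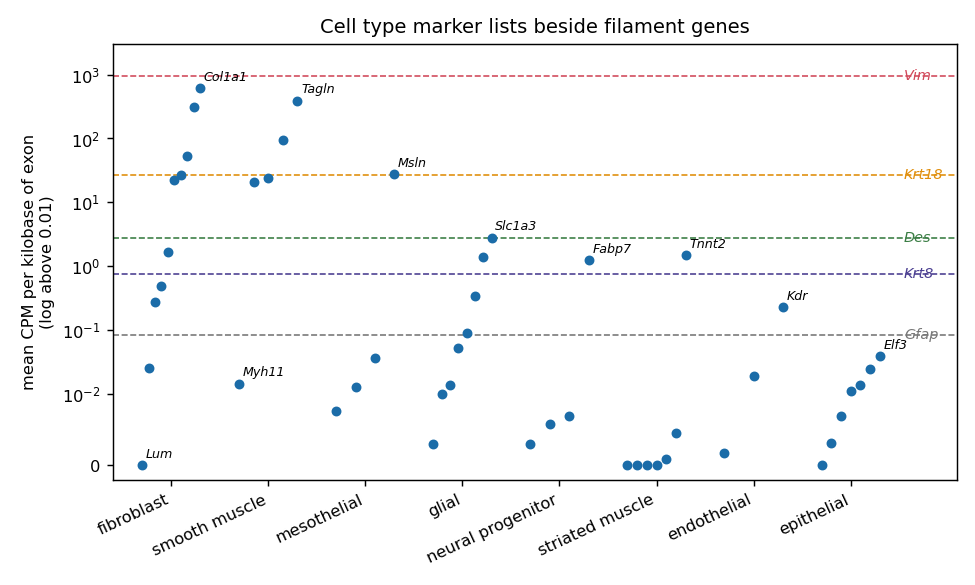
Mean level of each gene of 8 cell type marker lists in CPM per kilobase of exon, on an axis that is linear below 0.01 and logarithmic above, with dashed lines at the levels of Vim, Krt18, Des, Krt8 and Gfap. Col1a1 and Tagln come nearest to Vim, Msln lies near Krt18 at 27.7, and every epithelial marker lies below 0.04 (Elf3 at 0.0398 is the highest).

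The neuronal filament genes were lower than most members. Of Prph, Nefl, Nefm, Nefh and Ina, 3 were above 3 counts in every library, beside 58.9% of all protein-coding genes. Prph, which encodes peripherin of peripheral neurons, had 0.693 ± 0.124 CPM per kilobase (SD, n = 3), close to Krt8. Nefl, the neurofilament light chain, had 0.0837 ± 0.0375 (SD, n = 3) and Ina, α-internexin, 0.0561 ± 0.0215 (SD, n = 3), in the range of Gfap. Of the lens filament genes, Bfsp1 had 6, 2 and 3 counts and Bfsp2 0 in each library.

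Plec, the linker, came after Vim and Nes among the members. It covers 76170974 to 76232574 of chromosome 15 on the minus strand, with 21 annotated coding transcripts that begin at 15 different starts, which gene counts do not separate. Replicates 1 to 3 gave 954, 1035 and 969 CPM, averaging 986 ± 43.0 (SD, n = 3). Over its 18.1 kb of annotated exons this is 54.4 ± 2.38 CPM per kilobase (SD, n = 3), so that Vim was 17.7 ± 0.803 times as high (SD, n = 3), or 32.6 ± 1.48 times with coding transcript lengths, and Nes 1.62 ± 0.0645 times (SD, n = 3). Of its exonic length, 1.13% is overlapped on the same strand by Parp10, at 28.3 to 33.4 CPM.

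Plectin was the leading plakin of the list. Macf1, which crosslinks actin and microtubules, had 9.96 ± 0.433 CPM per kilobase (SD, n = 3), and Plec was 5.48 ± 0.462 times as high (SD, n = 3). Dsp, which anchors filaments to desmosomes, had 0.404 ± 0.0227 CPM per kilobase (SD, n = 3) and Dst, or dystonin, 0.332 ± 0.0111 (SD, n = 3), so that Plec exceeded them 135 ± 9.81-fold and 164 ± 12.6-fold (SD, n = 3). With coding transcript lengths Plec exceeded Dst 109 ± 8.35-fold (SD, n = 3). Ppl (periplakin) and Evpl (envoplakin), plakins of stratified epithelia, had 0.170 ± 0.0661 and 0.0538 ± 0.0190 CPM per kilobase (SD, n = 3). Plec was higher than Macf1, Dst and Dsp in 3 of 3 libraries. Eppk1 was not analysed here.

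Vim, Plec, Krt19 and Synm differed between the libraries by more than counting error allows. Each gene's 3 counts were compared with shares set by the TMM library sizes in a chi-square test, and Benjamini-Hochberg adjustment over 13814 genes called 4 of 10 members and 43.9% of all genes tested, so the share among the members was near the background. The test compares libraries of the same condition. Vim had an adjusted p of 1.78e-247, Plec 1.18e-38, Krt19 1.07e-07 and Synm 0.000752 by this chi-square test. The differences themselves were small: the highest library exceeded the lowest by a factor of 1.11 for Vim, 1.09 for Plec, 1.203 for Krt19 and 1.27 for Synm. All 4 were highest in replicate 2, and were lowest in replicate 1 (Plec and Synm) or replicate 3 (Vim and Krt19). Des was just outside the threshold, with an adjusted p of 0.052 by the same chi-square test. For Gfap, Krt7, Krt8, Krt18 and Nes the adjusted p was between 0.114 and 0.421 by this chi-square test.

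Replicate 2 decided part of these calls, since 2 members, Vim and Synm, were called without replicate 2, beside 12.5% of all genes tested. Without replicate 1, Vim, Krt19 and Plec were called (32.9% of all genes tested), and without replicate 3 Des was called in addition to the 4 (34% of all genes tested). The calls also moved with the GC content of genes. When each library was centred within bins of GC content, Plec, whose GC content of 61.3% was the highest of the members, went from 0.07 to -0.04 log2 units in replicate 2 relative to the mean of the 3 libraries. Vim, with the lowest GC content of the members at 46.5%, went from 0.06 to 0.09. After this centring 5 members were called (Vim, Nes, Synm, Krt19 and Plec), beside 29.9% of all genes tested.

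Among the low members the spread was wider, and none of Gfap, Krt7 and Krt8 was called. The highest library exceeded the lowest more than 1.5-fold in 2 of 10 members, Gfap (1.75-fold) and Krt8 (1.502-fold), beside 9.61% of all genes tested. The SD of log2 CPM was 0.40 for Gfap, where counting error gives 0.35, and 0.29 for Krt8, where it gives 0.17. Over the members the median SD of log2 CPM was 0.13, and over all genes tested 0.08.

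**Figure D5:**
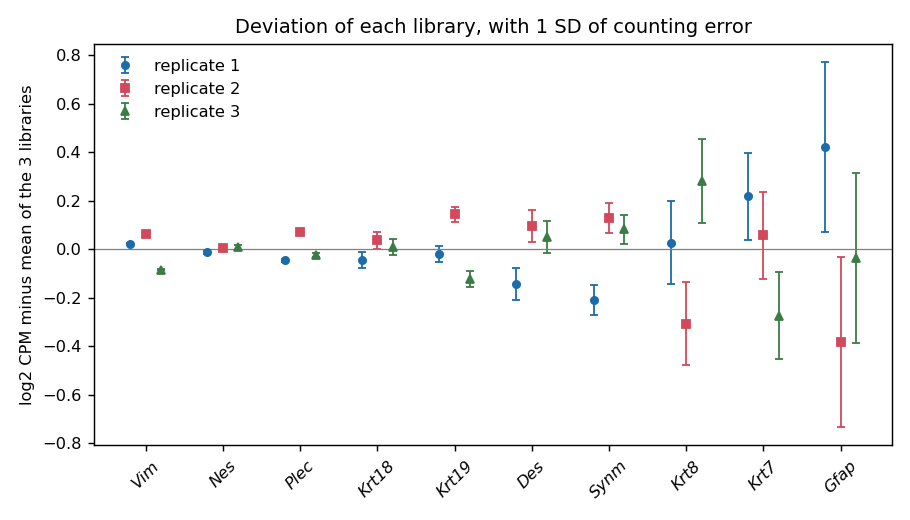
Log2 CPM of each member in each replicate minus the mean of the 3 libraries, with error bars of 1 SD of counting error, in the order of the members' levels. Replicate 2 is highest for Vim, Plec, Krt18, Krt19, Des and Synm, and the points of Nes lie between -0.01 and 0.01, whereas those of Gfap spread from -0.38 to 0.42.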

How the data were processed

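The values deposited by the authors are unnormalized read counts, with 1 table of Ensembl genes per library. Per the labels, the submitters' processing notes name Trimmomatic, FastQC, HISAT2 and HTSeq and the builds mm10 and GRCm38; versions, annotation release, strand setting and the treatment of reads matching several places are not given in the sources used here. The paper names DESeq2 for contrasts, which were not made here because all 3 libraries are of 1 group.

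Symbols, lengths (union of annotated exons) and coordinates came from GENCODE M21 on GRCm38, which matched 46091 of 46603 genes. Library totals were 49932446, 49587453 and 44383636 counts. CPM used TMM library sizes (edgeR 4.0.16, R 4.3.3); DESeq2 1.42.0 size factors and total counts were alternatives. Genes were compared with each other per kilobase of exon. The limit that a count of 0 allows was set at 3 counts, and 95% intervals cover counting error only. Variation between libraries was tested by chi-square with 2 degrees of freedom, at an adjusted p of 0.05. Genes that reached 10 counts in all 3 libraries entered the test. It was also run on simulated counts that held set changes and counting error alone. Such a run cannot show how the test behaves where libraries of 1 condition differ by more than counting error. GC content was divided into 20 bins. Python 3.11.15, numpy 2.4.6, pandas 2.3.3, scipy 1.17.1 and matplotlib 3.10.9 were used.

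The members, gene lists and tests were chosen with earlier results of these data known. All members were named, with up to 6 genes per other list, those of highest CPM per kilobase above 3 counts in every library, and the 4 coding genes nearest to Vim in level. The cell type marker lists were not held to this rule, and genes from them were named after their values were seen. So were genes at or near 0, genes overlapping a member and those beside Krt8 and Krt18. Likeness of patterns across libraries was not ranked, because 3 libraries of 1 condition give none. A gene of the lists and a set of sequences are not reported here.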

Additional observations from a re-analysis of the deposited data

How the results depend on the processing

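No paired analysis was possible because all libraries belong to 1 group. Other scalings, centring within bins of GC content and leaving out any 1 replicate moved 0 of 60 member levels by more than 1 SD, although leaving out 1 of 3 libraries cannot do so. Among the settings tried, the choice of length moved the shares and ratios. With coding transcript lengths the shares of the filament classes were 93.2% for Vim, 0.2205% for Des and Synm, 4.13% for Gfap and Nes and 2.48% for the keratins. Without division by length they were 10.8% for Gfap and Nes and 1.62% for the keratins. The ratio of the type I to the type II members was then 29.3, and 5 of the 9 neighbouring pairs kept their order without overlap. By mean CPM, Plec stood above Nes, Krt19 above Krt18 and Synm above Des. These changes follow from the lengths. At a limit of 1 CPM, 6 keratin genes were detected in place of 10, and 9 of 10 members, Gfap being below it. Leaving out each replicate in turn gave 1748 to 4786 genes and 2 to 5 members varying between libraries, lowest without replicate 2, against 6063 and 4; fits of 2 libraries also have less power. With DESeq2 size factors, or at least 100 counts, Des was called as well. Depth was the limit for Gfap, Krt7 and Krt8, which had 13 to 79 counts per library. The ratio of all type I to all type II keratins was recomputed with other lengths, a choice made after seeing the data, and gave 5.29 with coding transcript lengths and 2.23 without division by length.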

Other observations

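Genes of keratin and plectin partners at cell junctions ranged from high levels to the limit. In the desmosome list 6 of 8 genes were above 3 counts in every library, beside 58.9% of all protein-coding genes. Pkp4, Jup and Pkp2 were high, at 20.2 ± 0.274, 19.9 ± 1.501 and 19.0 ± 0.362 CPM per kilobase (SD, n = 3). Jup encodes plakoglobin and Pkp4 and Pkp2 plakophilins, all of the armadillo family. Pkp1 had 2.41 ± 0.121 CPM per kilobase, Dsp 0.404 ± 0.0227 and Pkp3 0.350 ± 0.0508 (SD, n = 3). The desmosomal cadherins of the list, which span the membrane, were at the limit, with 0, 2 and 0 counts for Dsg2 and 0, 1 and 0 for Dsc2. Of the hemidesmosome list, Cd151, a tetraspanin, had 37.6 ± 1.34 and the integrin gene Itga6 6.15 ± 0.207 CPM per kilobase (SD, n = 3). Itgb4, whose product binds plectin in epithelia, had 32, 15 and 16 counts and Col17a1 7, 9 and 7.

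All 6 genes of the list of filament chaperones and linkers were above 3 counts in every library, beside 58.9% of all protein-coding genes. The small heat shock proteins were the highest, Hspb1 at 72.9 ± 5.09 and Cryab, known as a chaperone of desmin, at 37.9 ± 2.08 CPM per kilobase (SD, n = 3). Syne3, which encodes nesprin-3 and ties plectin to the nuclear envelope, had 6.14 ± 0.117 and Tchp, a keratin-binding protein, 3.33 ± 0.246 CPM per kilobase (SD, n = 3). Padi2, which citrullinates vimentin, had 17, 19 and 5 counts.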
